A study of Mus musculus with 12 samples.

Results

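The genes described here are 9 genes of retinoid synthesis, transport and binding, namely Rbp4, Stra6, Lrat, Aldh1a1, Aldh1a2, Aldh1a3, Crabp1, Crabp2 and Rarb. They were taken by symbol, each through the probe set to which the platform annotation gives that symbol alone, and each had 1 such probe set. They are 9 of the 19938 genes with such a probe set on the Affymetrix Mouse Gene 1.0 ST array. The study grew uterine epithelial and stromal cells of CD-1 mice, taken on day 4 of pseudopregnancy, as a primary co-culture and profiled the 2 layers separately. The 4 groups of 3 arrays were epithelial cells under estradiol (E2, 10 nM), epithelial cells under vehicle (0.01% ethanol), stromal cells under E2 and stromal cells under vehicle. All groups shared the pseudopregnant origin, a night in phenol-red free medium with charcoal-stripped serum, and 2 days of treatment. Stroma was kept on cover slips and epithelium, as sheets, on inserts with a matrigel coat. Nothing in the labels tells if a group's arrays are separate cultures or animals, so p-values measure the spread between these samples alone, which may be technical.

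Retinoids are derivatives of vitamin A. Retinol travels in blood on the carrier Rbp4, enters cells through the membrane receptor Stra6, and is stored as an ester made by Lrat. Enzymes oxidize retinol to retinaldehyde, and the dehydrogenases Aldh1a1, Aldh1a2 and Aldh1a3 oxidize that to retinoic acid. Inside the cell Crabp1 and Crabp2 bind retinoic acid, Crabp2 delivering it to the nuclear receptors, of which Rarb is one and is itself a gene that retinoic acid induces. Cyp26 enzymes break retinoic acid down. Retinoid signalling is known to act in the uterine stroma.

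The promoter of Rarb carries the sequence for which the receptor family is known, and it is shown because Rarb is both a member and a known target. RefSeq windows (GRCm38.p6) of 250 bases before and 50 after an annotated start were found for 7 of the 9 genes, 12 windows in all, with none for Aldh1a3 and Crabp2. They were searched on both strands for the receptor half-sites (AGGTCA, or AGTTCA, or GGGTCA, or GGTTCA), singly or as direct repeats spaced by 1, 2 or 5 bases, and for the estrogen response element GGTCANNNTGACC. The 250 bases before the Rarb start (chr14:16575477-16575726, minus strand) and the 100 bases before one Aldh1a1 start (chr19:20601868-20601967, plus strand) read as follows, with half-sites in capitals.
Rarb: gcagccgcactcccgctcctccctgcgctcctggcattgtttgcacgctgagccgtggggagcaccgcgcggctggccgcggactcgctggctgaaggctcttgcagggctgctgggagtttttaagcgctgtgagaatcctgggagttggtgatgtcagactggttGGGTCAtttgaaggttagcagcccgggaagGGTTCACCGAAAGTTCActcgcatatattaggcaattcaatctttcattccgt
Aldh1a1: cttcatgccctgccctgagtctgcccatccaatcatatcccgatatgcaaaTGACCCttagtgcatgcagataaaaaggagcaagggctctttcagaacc

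In Rarb the last capitals, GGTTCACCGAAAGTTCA at positions -53 to -37 from the start, are 2 half-sites spaced by 5 bases, and a single half-site GGGTCA lay at -83 to -78. Such a repeat was in 0.0974% of 32851 promoter windows and in 1 of the 12 windows of these genes. The Aldh1a1 window, that of the member with the greatest fold under E2 below, held 1 half-site on the other strand, GGGTCA. Half-sites counted singly, including those inside repeats, were in 43.7% of all windows and in 4 of the 12. Repeats spaced by 1 base (0.222% of all windows) or 2 bases (0.268%) and the estrogen response element (0.07%) were in 0 of the 12. These matches describe the letters of the windows alone.

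Values below are log2 signals from RMA as deposited, and a difference is in log2 units with its standard error from limma, fitted on all 12 arrays. Adjusted p-values follow Benjamini and Hochberg across the 23410 probe sets that carry a gene symbol, with a threshold of 0.05, and an SD is over the 3 arrays of a group. The array medians over those probe sets lay between 7.38 and 7.43, and no test of signal against background was made. A probe set's level is compared between arrays only, never with that of another gene. The median SD of all probe sets was 0.158 in E2 and 0.185 in vehicle epithelium, and 0.0804 in E2 and 0.0946 in vehicle stroma. Of 19 measured epithelial markers, 17 were higher in the epithelial than in the stromal layer under E2 and 18 under vehicle, with 0 lower. Stromal markers separated the layers less. Of 19 measured, 4 were lower and 1 higher in epithelium under E2, and 10 lower and 1 higher under vehicle, and the stromal markers were thus also measured on the epithelial arrays. Of 10 mesothelial markers, 9 and 8 were higher in the epithelial layer under E2 and vehicle. In such bulk samples fewer cells of a type and less RNA per cell cannot be told apart.

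E2 moved these genes in both directions in both layers. In stroma 3 rose (Aldh1a1, Crabp2 and Rarb), 3 fell (Stra6, Lrat and Crabp1) and 3 did not pass, so that 6 of 9 passed where 3.5% of all probe sets did. In epithelium 3 rose (Aldh1a1, Aldh1a2 and Crabp2), 2 fell (Stra6 and Aldh1a3) and 4 did not pass, 5 of 9 where 2.9% of all probe sets passed. The arrays of the treatments did not overlap for 7 of 9 genes in stroma and 6 of 9 in epithelium, against 30.5% and 15% of all probe sets. The median size of the difference, without sign, was 1.10 in epithelium and 1.61 in stroma, against 0.12 and 0.10 over all probe sets. The sign was the same in both layers for 8 of 9 genes, Lrat being the exception, and for 63.6% of all probe sets. The genes were chosen with such results known, so these counts describe them.

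**Figure D1:**
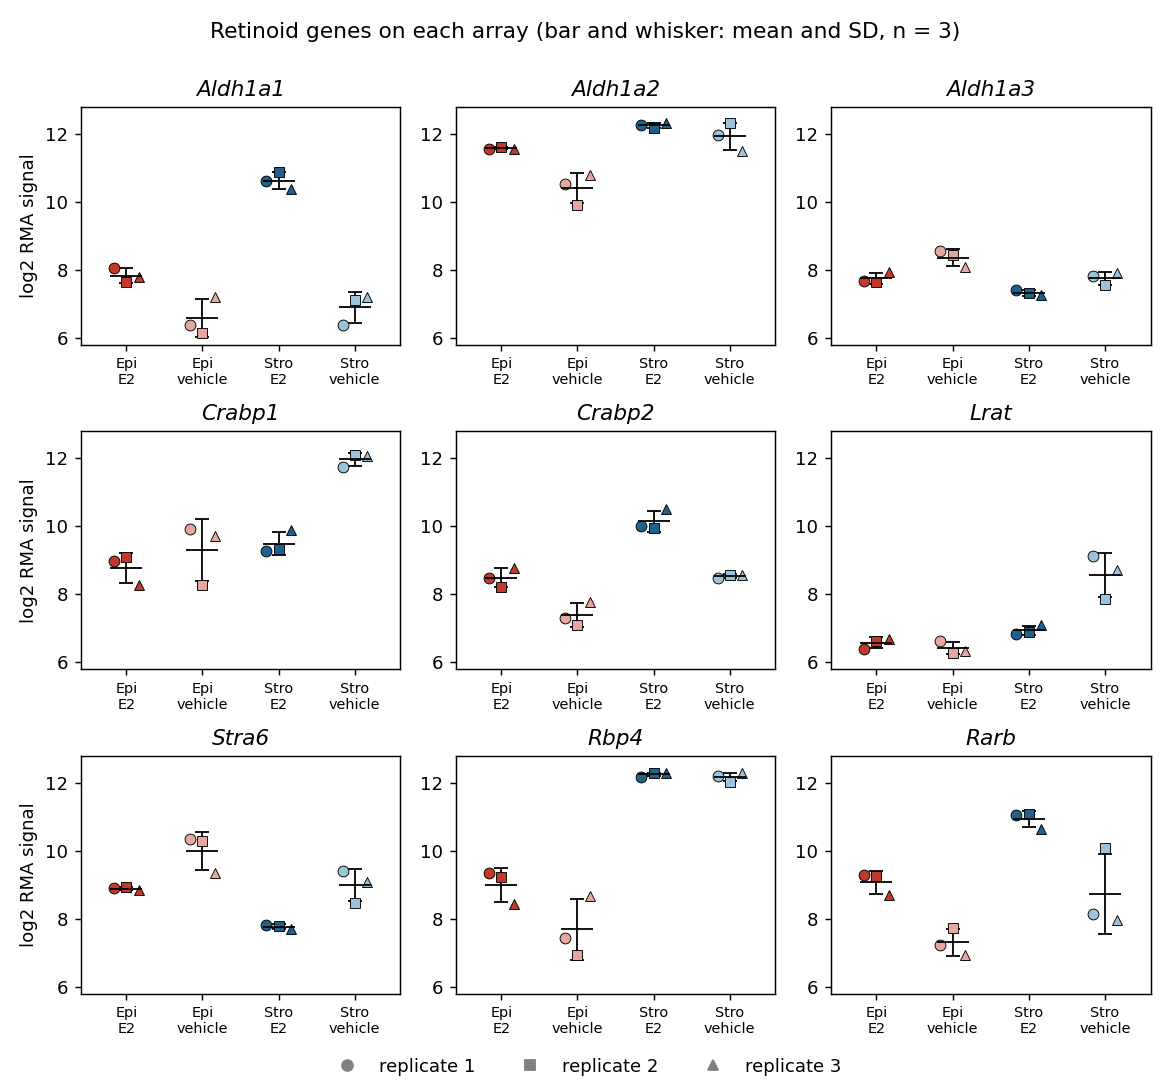
Log2 RMA signal (vertical axis, same range in each panel) of the 9 genes on every array, by layer and treatment. Symbols mark replicates 1 to 3, and the bar and whisker give mean and SD. Stromal Aldh1a1 lies between 10.37 and 10.88 under E2 and between 6.37 and 7.21 under vehicle, and stromal vehicle replicate 2 stands apart for Rarb at 10.07.

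Among the genes of transport, uptake and storage, Stra6 fell in both layers and Lrat in stroma. Stra6 measured 8.90, 8.92 and 8.84 in E2 epithelium (replicates 1 to 3), against 10.34, 10.28 and 9.34 in vehicle epithelium. In stroma it measured 7.82, 7.79 and 7.70 under E2, against 9.40, 8.48 and 9.10 under vehicle. The E2 arrays lay below all vehicle arrays in each layer and close together, with SDs of 0.04 in epithelium and 0.06 in stroma against 0.56 and 0.47 under vehicle. Stra6 fell by 1.10 ± 0.26 in epithelium (2.14-fold, adjusted p = 0.0481) and by 1.22 ± 0.26 in stroma (2.34-fold, adjusted p = 0.0245). The stromal call was lost without any of the 3 E2 arrays or vehicle replicates 1 or 3 of stroma (-1.02 to -1.25, adjusted p up to 0.113).

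Lrat, the esterifying enzyme, had a stromal pattern. It measured 6.84, 6.89 and 7.09 in E2 stroma, against 9.14, 7.86 and 8.71 in vehicle stroma, and 6.40, 6.64 and 6.70 in E2 epithelium, against 6.63, 6.29 and 6.34 in vehicle epithelium. Vehicle stroma alone stood high, and the other 9 arrays all measured 7.09 or less, under the array medians. Lrat fell by 1.63 ± 0.25 in stroma (3.09-fold, adjusted p = 0.00406) and differed by 0.16 ± 0.25 in epithelium (adjusted p = 0.839, 95% interval -0.39 to 0.72). The difference between the layers' effects was 1.79 ± 0.36 and passed (adjusted p = 0.0461), where 0.91% of all probe sets did.

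Rbp4, the retinol carrier, did not pass in either layer. It measured 9.34, 9.23 and 8.43 in E2 epithelium, against 7.43, 6.95 and 8.68 in vehicle epithelium. E2 replicate 3 lay within the vehicle range and vehicle replicate 3 within the E2 range, and the difference was 1.31 ± 0.36 (adjusted p = 0.0815). In stroma all 6 arrays measured between 12.04 and 12.29, a difference of 0.07 ± 0.36 (adjusted p = 0.977, 95% interval -0.72 to 0.87).

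Of the 3 retinaldehyde dehydrogenases, Aldh1a1 rose in both layers, Aldh1a2 rose in epithelium and Aldh1a3 fell in epithelium. Aldh1a1 measured 10.63, 10.88 and 10.37 in E2 stroma, against 6.37, 7.11 and 7.21 in vehicle stroma. In epithelium it measured 8.06, 7.64 and 7.79 under E2, against 6.37, 6.15 and 7.21 under vehicle. The treatments did not overlap in either layer, and the stromal gap was the wider. Aldh1a1 rose by 3.73 ± 0.28 in stroma (13.3-fold, adjusted p = 5.56e-05) and by 1.25 ± 0.28 in epithelium (2.38-fold, adjusted p = 0.0384). The epithelial minus the stromal effect was -2.48 ± 0.40 (adjusted p = 0.0156), a difference whose call was lost without E2 epithelial replicate 2 or E2 stromal replicates 1 or 2 (-2.35 to -2.48, adjusted p up to 0.0613). Vehicle values lay under the array medians in both layers, so the folds are ratios of the deposited signals.

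Aldh1a2, the enzyme of retinoic acid synthesis in stromal and mesothelial cells, measured 11.57, 11.62 and 11.57 in E2 epithelium, against 10.53, 9.92 and 10.80 in vehicle epithelium. In stroma it measured 12.26, 12.19 and 12.32 under E2, against 11.96, 12.32 and 11.51 under vehicle. The epithelial treatments were apart, while stromal vehicle replicate 2 lay among the E2 arrays. Aldh1a2 rose by 1.17 ± 0.22 in epithelium (2.25-fold, adjusted p = 0.0168) and differed by 0.33 ± 0.22 in stroma (adjusted p = 0.684). The difference between the layers' effects, 0.84 ± 0.31, did not pass (adjusted p = 0.317).

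Aldh1a3 measured 7.66, 7.64 and 7.95 in E2 epithelium, against 8.55, 8.45 and 8.09 in vehicle epithelium. In stroma it measured 7.42, 7.31 and 7.25 under E2, against 7.82, 7.54 and 7.89 under vehicle. The E2 arrays were lower without overlap in both layers. It fell by 0.61 ± 0.14 in epithelium (1.53-fold, adjusted p = 0.0400), while the stromal difference of -0.43 ± 0.14 did not pass (adjusted p = 0.163). The effects of the layers differed by -0.19 ± 0.20 (adjusted p = 0.948).

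The cellular binding proteins moved apart, Crabp2 rising in both layers and Crabp1 falling in stroma. Crabp2 measured 10.01, 9.94 and 10.51 in E2 stroma, against 8.49, 8.57 and 8.58 in vehicle stroma. In epithelium it measured 8.49, 8.22 and 8.76 under E2, against 7.29, 7.11 and 7.77 under vehicle. All E2 arrays were above all vehicle arrays of their layer. Crabp2 rose by 1.61 ± 0.20 in stroma (3.05-fold, adjusted p = 0.000975) and by 1.10 ± 0.20 in epithelium (2.15-fold, adjusted p = 0.0133). The difference between the layers' effects was -0.51 ± 0.28 (adjusted p = 0.612).

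Crabp1 measured 9.27, 9.33 and 9.88 in E2 stroma, against 11.76, 12.10 and 12.06 in vehicle stroma, again without overlap. In epithelium it measured 8.98, 9.09 and 8.26 under E2, against 9.93, 8.27 and 9.71 under vehicle, where the treatments overlapped. Crabp1 fell by 2.48 ± 0.38 in stroma (5.57-fold, adjusted p = 0.00366) and differed by -0.53 ± 0.38 in epithelium (adjusted p = 0.579). The difference between the layers' effects, 1.95 ± 0.53, did not pass (adjusted p = 0.145).

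The receptor gene Rarb rose in stroma. It measured 11.05, 11.09 and 10.65 in E2 stroma, against 8.15, 10.07 and 7.97 in vehicle stroma, and 9.29, 9.25 and 8.69 in E2 epithelium, against 7.23, 7.74 and 6.94 in vehicle epithelium. The treatments did not overlap in either layer, although stromal vehicle replicate 2 lay far above the other vehicle arrays of stroma. Rarb rose by 2.20 ± 0.45 in stroma (4.60-fold, adjusted p = 0.0202), and its epithelial difference of 1.77 ± 0.45 did not pass (adjusted p = 0.0623). Without stromal vehicle replicate 2 the stromal difference was 2.87 ± 0.25 (adjusted p = 0.000192), and the epithelial difference then passed (adjusted p = 0.00352), since both use the same estimate of spread. The epithelial difference also passed with the replicate number as a block (adjusted p = 0.0266), with a block by layer and number (adjusted p = 0.0487), after quantile normalization and with array weights. In most alternatives it did not pass. The epithelial call was made in 5 of 22, and in 1 of the 12 fits with an array left out, with adjusted p up to 0.208. The stromal call was lost without any of the 3 E2 arrays or vehicle replicates 1 or 3 of stroma (1.82 to 2.34, adjusted p up to 0.0972). The layers' effects differed by -0.43 ± 0.64 (adjusted p = 1.00).

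**Figure D2:**
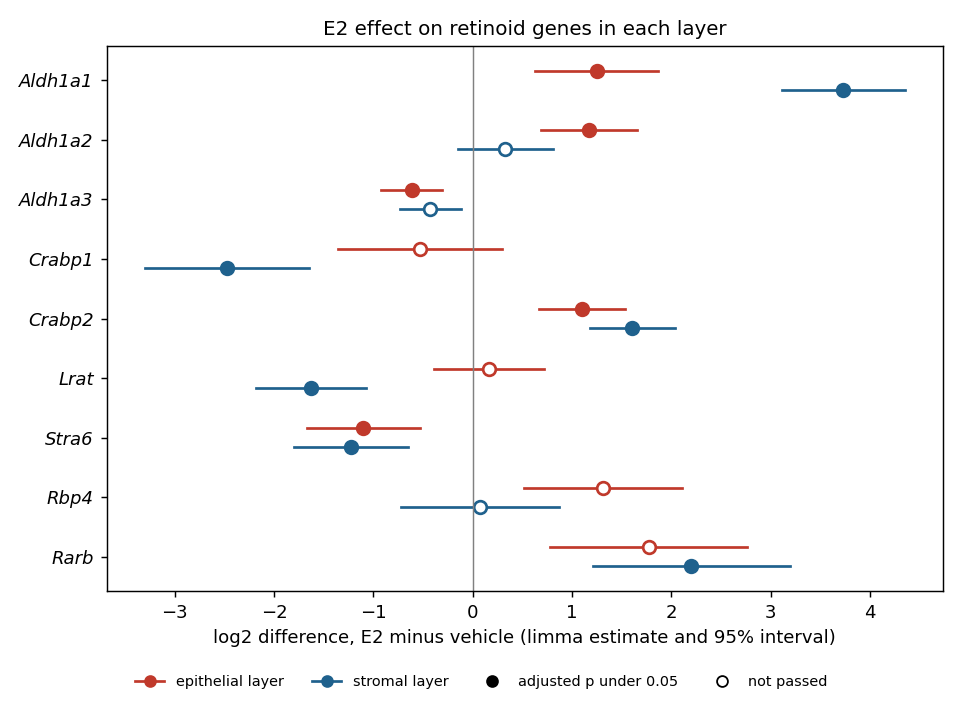
Log2 difference of E2 minus vehicle (horizontal axis) for the 9 genes in the epithelial (red) and stromal (blue) layer, with limma estimates and 95% intervals. Filled points passed at an adjusted p under 0.05. Aldh1a1 reaches 3.73 in stroma and 1.25 in epithelium, and Lrat is the gene whose sign differs between the layers, its epithelial interval holding 0.

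The epithelial calls depended on which arrays were fitted. Each of the 5 passed in the 12-array fit, but 0 of 9 genes passed by limma on the 6 epithelial arrays alone. There all 9 kept their direction and the lowest adjusted p was 0.0525, for Rarb, with an unadjusted p under 0.05 for 7 of 9. Calls over all probe sets fell from 678 to 49 in that fit, so the loss was not particular to these genes. The share of all probe sets with an unadjusted p under 0.05 there was not counted. Aldh1a2 lost its call without E2 epithelial replicates 1 or 2 (1.18 and 1.16, adjusted p = 0.0719 and 0.0794), and Crabp2 without E2 epithelial replicate 1 or vehicle epithelial replicate 1 (1.11 and 1.05, adjusted p up to 0.0598). Aldh1a1, Aldh1a3 and Stra6 each lost theirs without 9 of the 12 arrays, among them the 3 E2 stromal arrays, whose removal left the epithelial differences unchanged. Aldh1a1 kept it without E2 epithelial replicate 3, vehicle epithelial replicate 3 or vehicle stromal replicate 1. Aldh1a3 kept it without E2 epithelial replicate 3, vehicle epithelial replicate 3 or vehicle stromal replicate 2, and Stra6 without vehicle epithelial replicate 3 or vehicle stromal replicates 1 or 2. Their differences over these fits were 1.04 to 1.57, -0.75 to -0.52 and -1.42 to -0.92, with adjusted p up to 0.159, 0.165 and 0.149. The Lrat difference between layers likewise lost its call without 9 arrays and kept it without E2 epithelial replicate 3, vehicle epithelial replicate 3 or vehicle stromal replicate 2 (1.51 to 2.15, adjusted p up to 0.134). In stroma Aldh1a1, Crabp1, Crabp2 and Lrat passed whichever array was left out.

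Cell type markers varied among the epithelial arrays, and most did not pass under E2. The mean of the 19 epithelial markers was 9.14, 9.32 and 9.43 under E2, against 10.14, 10.70 and 9.18 under vehicle, and 1 of them fell by the test. The mean of the 19 stromal markers was 10.34, 10.29 and 10.28 under E2, against 9.72, 9.51 and 10.36 under vehicle, with 1 rising. Vehicle replicate 3 thus had the lowest epithelial and the highest stromal marker mean of the vehicle arrays. It was also the vehicle array nearest to the E2 mean for 6 of the 9 genes, namely Aldh1a1, Aldh1a2, Aldh1a3, Crabp2, Stra6 and Rbp4. How often it was the nearest over all probe sets was not counted. Without vehicle replicate 3, 6 of 9 genes passed in epithelium, Rbp4 being added (1.81, adjusted p = 0.00179). The calls over all probe sets rose from 678 to 1634 in the same fit, so the gain was not particular to these genes. The Rbp4 effects of the layers then also differed (1.74, adjusted p = 0.0175). Rbp4 passed in epithelium without E2 replicate 3 as well (1.60, adjusted p = 0.0332). The mesothelial marker mean was 9.22, 8.99 and 9.25 under E2, against 8.94, 9.05 and 9.63 under vehicle, and that of 14 leukocyte markers was 8.42, 8.50 and 8.01, against 8.05, 7.78 and 8.10. In stroma the epithelial markers averaged 6.83 to 6.95 under E2, against 6.60 to 6.78 under vehicle, and the stromal markers 10.42 to 10.62, against 10.52 to 10.69. The stromal layer's leukocyte markers averaged 8.37 to 8.54, against 8.76 to 8.79. Its 10 smooth muscle markers averaged 10.62 to 10.69, against 10.39 to 10.48. The mesothelial and endothelial means overlapped. By the test 1 leukocyte and 2 endothelial markers fell in stroma, and 1 epithelial and 2 smooth muscle markers rose. The part of cell makeup in the differences of either layer was not tested.

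Between the layers, Rbp4, Crabp2 and Rarb were lower and Stra6 was higher in epithelium under both treatments. Under E2, 4 were lower in epithelium than in stroma (Rbp4, Aldh1a1, Crabp2 and Rarb) and Stra6 was higher, 5 of 9 where 13.6% of all probe sets passed. Under vehicle, 6 were lower in epithelium (Rbp4, Lrat, Aldh1a2, Crabp1, Crabp2 and Rarb), 2 were higher (Stra6 and Aldh1a3), and Aldh1a1 did not pass, 8 of 9 where 21.4% did. The order of these counts turned when each treatment was fitted on its own arrays, with 7 of 9 genes passing on the 6 E2 arrays and 6 of 9 on the 6 vehicle arrays, where Stra6 and Rarb did not pass (adjusted p = 0.0917 and 0.133). The shares of all probe sets passing in these 2 fits are not given here, so nothing is read from the turn. The layers' arrays did not overlap for 9 of 9 genes under E2, against 38.9% of all probe sets, and for 7 of 9 under vehicle, against 36%. These comparisons share their arrays with the E2 comparisons above.

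The carrier Rbp4 had the widest gap of the 9, its arrays lying between 8.43 and 9.34 in epithelium and between 12.18 and 12.29 in stroma under E2. Under vehicle they lay between 6.95 and 8.68 in epithelium and between 12.04 and 12.29 in stroma. The differences were -3.25 ± 0.36 under E2 (adjusted p = 0.000154) and -4.49 ± 0.36 under vehicle (adjusted p = 1.56e-05). Its uptake receptor Stra6 ran the other way, 1.12 ± 0.26 higher in epithelium under E2 (adjusted p = 0.0147) and 0.99 ± 0.26 higher under vehicle (adjusted p = 0.0187). In the vehicle arrays of Stra6 the layers overlapped, epithelial replicate 3 (9.34) lying below stromal replicate 1 (9.40).

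Aldh1a1 was lower in epithelium under E2 (-2.80 ± 0.28, adjusted p = 7.91e-05), and its gap under vehicle did not pass (-0.32 ± 0.28, adjusted p = 0.459). Crabp1 and Lrat ran in the opposite order, at -0.72 ± 0.38 (adjusted p = 0.245) and -0.36 ± 0.25 (adjusted p = 0.386) under E2 against -2.67 ± 0.38 (adjusted p = 0.000577) and -2.15 ± 0.25 (adjusted p = 0.000173) under vehicle. The change of the gap between treatments is the difference between the layers' effects tested above, which passed for Aldh1a1 and Lrat and not for Crabp1. Crabp2 was lower in epithelium under E2 (-1.66 ± 0.20, adjusted p = 0.000228) and under vehicle (-1.15 ± 0.20, adjusted p = 0.00172). Rarb was lower likewise (-1.85 ± 0.45, adjusted p = 0.0184, and -1.43 ± 0.45, adjusted p = 0.0437), the vehicle gap being -0.75 without stromal vehicle replicate 2 (adjusted p = 0.0710).

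Aldh1a2 and Aldh1a3 differed between the layers in opposite directions. The gap of Aldh1a2 under E2, -0.67 ± 0.22, did not pass (adjusted p = 0.0676), and under vehicle it was lower in epithelium (-1.52 ± 0.22, adjusted p = 0.000673). The gap of Aldh1a3 under E2, 0.42 ± 0.14, did not pass (adjusted p = 0.0720), and under vehicle it was 0.61 ± 0.14 higher in epithelium (adjusted p = 0.00933). Vehicle arrays of the layers with the same replicate number deviated together weakly (r of 0.17, 0.14 and 0.13). A block by that number kept 8 genes on all 12 arrays, while on the 6 vehicle arrays 4 passed. Calls over all probe sets fell from 5001 to 2803 in the fit of 6 arrays, so the drop was not particular to these genes. Aldh1a2, Aldh1a3, Stra6 and Rarb then had adjusted p of 0.0551, 0.0812, 0.109 and 0.0548. Left-out arrays ended further calls. The vehicle gap of Rarb lost its call without 8 of the 12 arrays, keeping it without E2 epithelial replicate 3, vehicle epithelial replicate 2 or vehicle stromal replicates 1 or 3 (-1.81 to -0.75, adjusted p up to 0.123). That of Stra6 was lost without epithelial vehicle replicate 1 (0.82, adjusted p = 0.0763) or stromal vehicle replicate 2 (0.74, adjusted p = 0.0769). Under E2 the Rarb gap was lost without epithelial replicate 3 or stromal replicates 1 or 2 (-1.66, -1.79 and -1.77, adjusted p up to 0.0703), and that of Stra6 without stromal replicate 3 (1.08, adjusted p = 0.0546). Gaps under E2 that did not pass on all 12 arrays passed with an array left out for Aldh1a2 (without vehicle epithelial replicates 2 or 3 or vehicle stromal replicate 3, adjusted p up to 0.0458), Aldh1a3 (without vehicle epithelial replicate 3, adjusted p = 0.0374) and Crabp1 (without vehicle epithelial replicate 2, adjusted p = 0.0444). On the 6 E2 arrays alone those of Aldh1a2 and Aldh1a3 passed as well (adjusted p = 0.00140 and 0.0429).

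**Figure D3:**
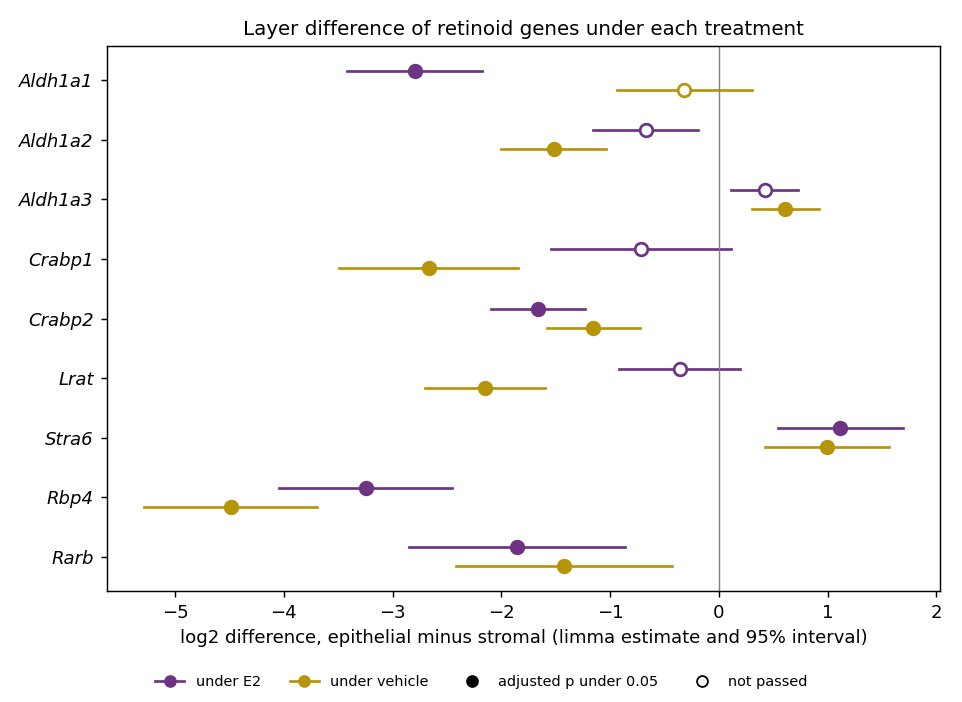
Log2 difference of the epithelial minus the stromal layer (horizontal axis) for the 9 genes under E2 (purple) and under vehicle (yellow), with limma estimates and 95% intervals. Filled points passed at an adjusted p under 0.05. Rbp4 lies at -3.25 and -4.49, Stra6 and Aldh1a3 lie right of 0, and the interval of Aldh1a1 holds 0 under vehicle and not under E2.

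Other genes of the pathway, 72 measured of 77 listed, mostly did not pass under E2, like all probe sets, of which 3.5% passed in stroma and 2.9% in epithelium. In stroma 3 rose and 1 fell, with a median of 0.07 against 0.03 over all probe sets, and in epithelium 2 rose and 0 fell, with a median of 0.08 against 0.03. Among 15 enzymes of retinol oxidation and retinaldehyde reduction, 1 rose in stroma, the alcohol dehydrogenase Adh1, which can oxidize retinol. Adh1 measured 8.10, 8.61 and 9.23 in E2 stroma, against 6.12, 6.42 and 6.18 in vehicle stroma, and 6.09, 6.17 and 6.58 in E2 epithelium, against 6.08, 5.77 and 6.45 in vehicle epithelium. It was high in E2 stroma alone, the group in which Aldh1a1 was highest. It rose by 2.40 ± 0.26 in stroma (5.29-fold, adjusted p = 0.000414) and differed by 0.18 ± 0.26 in epithelium (adjusted p = 0.828). The difference between the layers' effects was -2.23 ± 0.37 (adjusted p = 0.0174), a call lost without E2 epithelial replicates 1 or 2, E2 stromal replicate 2 or vehicle stromal replicates 1 or 3 (-1.93 to -2.50 over the fits without 1 array, adjusted p up to 0.0645).

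Of 5 enzymes of retinoic acid clearance, Cyp2s1, a cytochrome P450 whose human form acts on retinoic acid, rose in stroma (0.66 ± 0.12, adjusted p = 0.0102). Cyp26a1 and Cyp26b1, the enzymes best known for this step, and the receptor Rara are given for their roles, outside the naming rule and after their values were seen. Cyp26a1 differed by -0.76 ± 0.39 in epithelium (adjusted p = 0.375) and 0.16 ± 0.39 in stroma (adjusted p = 0.955). Cyp26b1 differed by 0.33 ± 0.15 (adjusted p = 0.300) and -0.47 ± 0.15 (adjusted p = 0.147). Cyp1b1, of the same list and also outside the rule, had its largest difference, -1.67 ± 0.42 in epithelium (adjusted p = 0.0612). Its E2 arrays lay below all vehicle arrays there, and in stroma it differed by 0.18 ± 0.42 (adjusted p = 0.953). None of these passed, nor did any of the 8 other receptors listed, such as Rara (0.18 ± 0.09 in epithelium and -0.09 ± 0.09 in stroma). Of 9 other binding and uptake genes, Rbp3, a retinoid carrier known from the retina, rose in stroma (0.52 ± 0.11, adjusted p = 0.0202), at values of 6.29 or less. Its call was lost without any of the 3 E2 arrays or vehicle replicates 2 or 3 of stroma (adjusted p up to 0.109). Of 12 genes of retinyl esters and carotenoids, 0 passed by limma in either layer, with an unadjusted p under 0.05 for 1 gene in each.

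A list of 23 measured genes that retinoic acid is reported to induce in various tissues, Rarb not among them, mostly did not pass. Over all probe sets 2.9% passed in epithelium and 3.5% in stroma. In epithelium 2 rose, namely Pdk4, a kinase of pyruvate dehydrogenase (1.41 ± 0.32, adjusted p = 0.0411), and the transcription factor Gata4 (0.59 ± 0.11, adjusted p = 0.0196). In stroma 0 passed as higher and the zinc finger gene Zfp703 passed as lower (-0.39 ± 0.09, adjusted p = 0.0340). Some genes that did not pass still had no overlap in stroma, as 30.5% of all probe sets did. Examples outside the naming rule are Tgm2 and Rarres1, higher under E2 (means 11.7 against 10.7 and 7.6 against 6.5), and Dusp6, lower (9.5 against 10.5). The list's median was 0.06 in epithelium and 0.07 in stroma, against 0.03 in each over all probe sets. Pdk4 lost its call without 9 of the 12 arrays (0.92 to 1.76, adjusted p up to 0.162), Gata4 without E2 or vehicle epithelial replicate 1 (adjusted p up to 0.0735), and Zfp703 without 6 arrays (adjusted p up to 0.161).

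**Figure D4:**
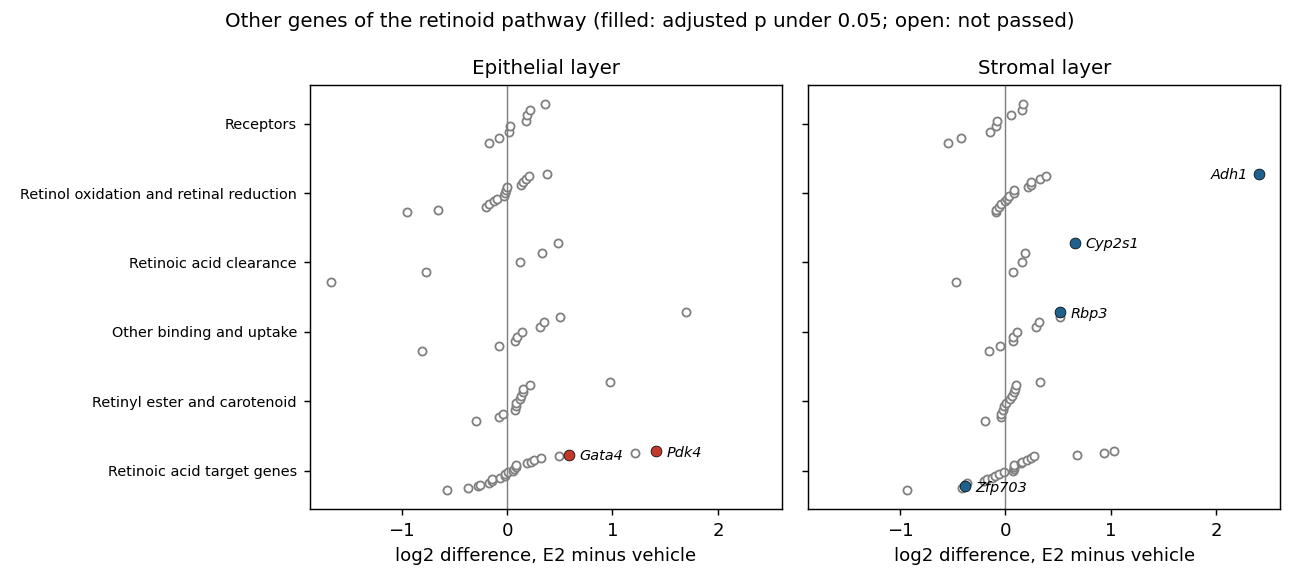
Log2 difference of E2 minus vehicle (horizontal axis) for the 72 other measured genes of the pathway, by list, in the epithelial (left) and stromal (right) layer. Filled, named points passed at an adjusted p under 0.05, and Adh1 stands at 2.40 in stroma.

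Between the layers, 8 of the 72 other genes were higher and 8 lower in epithelium under E2, and 12 higher and 10 lower under vehicle, where 13.6% and 21.4% of all probe sets passed in either direction. Of the 8 receptors, 1 passed under E2 and 4 under vehicle, all lower in epithelium. The one under both was Rxra, a common partner of these receptors (-0.58 ± 0.12, adjusted p = 0.00638, and -0.64 ± 0.12, adjusted p = 0.00268). Dhrs9, a short-chain dehydrogenase, was higher in epithelium under E2 (2.38 ± 0.30) and vehicle (3.24 ± 0.30), while Cyp26b1 was lower (-0.93 ± 0.15 and -1.73 ± 0.15), with adjusted p of 0.00167 or less. These genes are examples. Others that passed under both treatments, such as Cyp1b1 (1.42 ± 0.42 and 3.27 ± 0.42) and Fabp5 (-1.04 ± 0.26 and -1.52 ± 0.26), are not all named.

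The genes whose pattern over the 12 arrays was most like each member were found among 1806 single-symbol genes with an SD of at least 0.5. The 12 arrays fall into 4 groups, so a correlation mainly reflects shared group means, and r within groups is given beside it for the first gene of each member. For Aldh1a1 these were the mucin Muc13 (r = 0.98, within groups 0.68), Mettl7a1 and Galnt13. For Aldh1a2 they were the glycogen phosphorylase Pygl (0.97, within groups 0.82), Adm and Srgn, and for Aldh1a3 the growth factor gene Pdgfb (0.95, within groups 0.74), Ptger4 and Stim2. Crabp1 went with Phldb1 (0.98, within groups 0.80), Robo2 and Plxdc1, and Crabp2 with the glucose transporter Slc2a12 (0.98, within groups 0.71), Fam13c and Matn2. Lrat went with the collagen gene Col15a1 (0.97, within groups 0.74), Slc6a2 and Stmn4, and Stra6 with Prpsap2 (0.95, within groups 0.64), Cdh2 and Dusp4. Rbp4 went with Cped1 (1.00, within groups 0.98), Coch and Dkk3, and Rarb with Zxdc (0.97, within groups 0.87), Foxc1 and Ddhd1. Rbp4 and Cped1 thus also varied together between arrays of 1 group.

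Among the members themselves, Stra6 and Aldh1a3 were alike (r = 0.96 over the 12 arrays, 0.78 within groups), as did Crabp1 and Lrat over all arrays (0.87) but not within groups (0.03). Stra6 was opposed to Crabp2 (-0.95, within groups -0.58), Rarb (-0.91, within groups -0.32) and Aldh1a1 (-0.90, within groups -0.75). Lrat and Rarb were unrelated over all arrays (-0.02) and opposed within groups (-0.85), where stromal vehicle replicate 2 held both the highest Rarb and the lowest Lrat value of its group. That array was nearest to the E2 mean for 5 of the 9 genes in stroma, a count not made over all probe sets.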

How the data were processed

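The values were deposited by the authors as log2 signals per probe set and array. Per the submitters' processing notes they come from RMA, whose version and settings are not given in the sources used here. RMA equalizes the distributions of the arrays, so a shift shared by most genes would not show. Of 35556 probe sets, 23410 had a symbol and 21789 had 1 symbol alone. Each gene stands by its brightest single-symbol probe set over the 12 arrays. The 4 groups come from the labels and no pair of arrays was identical.

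A model with the 4 groups was fitted by limma 3.58.1 (lmFit and eBayes) in R 4.3.3, with 8 residual and 3.27 prior degrees of freedom, and its SE follows each difference. Adjusted p-values are limma's with Benjamini-Hochberg adjustment. The fit was tried on simulated data with independent noise and added shifts in E2 stroma alone. Those data lacked the outlying arrays and unequal group spreads seen here, so no result rests on them. The depth of an array is not defined, and 3 arrays a group limit the precision.

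The members and the gene lists were chosen with earlier results of these data known. The rule was to name other pathway genes where they passed, up to 4 per list and comparison. Apart from genes marked as outside it, the rule was followed for the E2 effects and their difference between layers. Between the layers only examples are named. For each member the 3 genes of highest Pearson r are named. The listed pathway genes not counted as measured were not analysed here.

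Vehicle arrays of the 2 layers with the same replicate number deviated together weakly (r of 0.17, 0.14 and 0.13 between their deviations from the group means). An alternative added after the data were seen took the numbers as pairs there. The reported fit used no pairs. In the other comparisons at least 1 pair was under 0.1. Alternatives covered scaling, filters, probe sets, the prior, array weights, replicate blocks, fewer arrays and each array left out.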

Additional observations from a re-analysis of the deposited data

Results flagged for a closer look

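The effect of E2 on 2 of the 9 genes differed between the layers by a test of that difference (limma, epithelial minus stromal effect). For Aldh1a1 it was -2.48 (adjusted p = 0.0156), with effects of 1.25 in epithelium and 3.73 in stroma, each with all 3 E2 arrays above all 3 vehicle arrays. For Lrat it was 1.79 (adjusted p = 0.0461), with effects of 0.16 in epithelium and -1.63 in stroma, where all 3 E2 arrays lay below all 3 vehicle arrays.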

How the results depend on the processing

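Of 26 calls on the 9 genes, 11 held under every alternative run. Over 963 comparisons with an alternative 961 kept the direction, 90 lost a call, 24 gained one and 0 reversed with a call. In epithelium the reported 5 genes passing under E2 became 2 with all probe sets of the table tested, 8 with array weights, 3 with a replicate block, 3 with a block by layer and number, and 0 on the 6 epithelial arrays alone. Under both blocks Aldh1a1, Aldh1a3 and Stra6 were lost (adjusted p from 0.0517 to 0.113) and Rarb was gained. In the last, limma gave 7 of 9 genes an unadjusted p under 0.05, a count not made over all probe sets. Over all probe sets the 678 calls became 1044 after quantile normalization, 4706 with array weights, 438 with the block by layer and number, and 49 on the 6 arrays. In stroma 820 calls became 4503 with array weights and 2142 on the 6 stromal arrays alone. For the difference between the layers' effects, the 2 genes became 1 with all probe sets and 5 with array weights, and the 213 calls became 128 and 4488. Under E2 the 3184 layer calls became 11798 with array weights. Under vehicle the 8 genes became 4 on the 6 vehicle arrays with a replicate block, an alternative added after the data were seen, and the 5001 calls became 2803 there and 9867 with array weights. The replicate block on all 12 arrays gave 6, 2, 5 and 8 genes for stroma, the difference of effects and the layers under E2 and vehicle, as reported. The reported fit did not take the replicate numbers to pair E2 with vehicle arrays, whose deviations correlated at -0.42 to 0.27. The cause of these moves was not tested. With 1 array left out, genes passing ranged from 0 to 6 in epithelium, 4 to 6 in stroma, 0 to 3 for the difference, 4 to 7 between layers under E2 and 6 to 8 under vehicle. Probe sets ranged from 219 to 1634, 413 to 1342, 81 to 725, 1953 to 4636 and 3385 to 7197. The signal over background, not measured here, limits what the low values of Lrat and Aldh1a1 show.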
